A study of Mus musculus with 24 samples.

Results

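The genes described here are 10 genes of the smooth muscle contractile apparatus and its regulation, Acta2, Actg2, Myh11, Tagln, Cnn1, Des, Smtn, Synpo2, Pgm5 and Myocd, measured in the mouse embryonic urogenital sinus (UGS). They were chosen by name and not by their values: every array probe whose gene name in the scanner files is 1 of the 10 was taken, which gave 18 of the 41174 probes on the array. Of these, 17 were among the 35477 probes bright enough to test, and the 10 genes were 10 of the 24717 genes tested. The probe that was not kept, for an Acta2 transcript (AK033744), was well above background on 1 of 24 arrays. Acta2 had 4 probes, Synpo2 had 3, Tagln, Myocd and Pgm5 had 2 each, and the other genes had 1 each. The brightest of these probes stands for its gene below, and the others are described beside it. Probes that trace to Acta2 and Synpo2 under other names were brighter (mean levels 13.55 and 8.49) and lie outside this choice.

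Smooth muscle cells shorten when myosin pulls on actin filaments that are anchored to dense bodies and to the cell membrane. The genes for this machinery share an on-switch: serum response factor binds short DNA elements called CArG boxes in their promoters, and its partner myocardin, the product of Myocd, turns them on together. In the UGS, from which the prostate grows in males, smooth muscle forms in the mesenchyme around the epithelial tube, and in the rat a layer of smooth muscle between the epithelium and the mesenchyme that induces prostate buds is known to differ between the sexes late in gestation.

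The series asked which genes of the UGS depend on androgen. All embryos came from C57/Bl6J mice, with no other allele or agent named in the labels. In the 2 drug comparisons, pregnant females were given 50 mg/kg of dihydrotestosterone (DHT), the androgen made from testosterone by 5-alpha-reductase, or vehicle at 16 days post coitum (dpc), and female embryos were dissected 6 h later (4 pairs of pools) or 12 h later (3 pairs). In the third, the UGS of untreated males was compared with that of their female littermates at 17.5 dpc (5 pairs), which the labels also call the 48 h point. Embryos were sexed by eye from their gonads, the accessory ducts were removed, and RNA of several embryos was pooled, so that each value below is an average over embryos whose number is not given in the sources used here. The 2 pools of a pair were hybridised against each other on 2-colour Agilent arrays, once in each dye orientation, and the 2 arrays were averaged to 1 replicate. A log2 ratio below 0 means less RNA in the DHT pool than in the vehicle pool, or less in the male pool than in the female pool.

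The median spot signal lay between 98.14 and 151.1 over the 24 arrays and both dyes, and 72.5 to 86% of probes were well above background. The dye-swapped array of male-female pair 1 stood apart with 1646 outlier spots, which were set to missing, against 1 to 219 on each other array. The dye-swapped arrays of a pair correlated across genes (no independent replicates) at r = 0.351 to 0.741 between the sexes, at −0.512 to −0.0776 at 6 h and at −0.216 to 0.0902 at 12 h. These ratios had been turned to 1 sign, so an r below 0 means that the 2 dye orientations tended to go opposite ways across genes. What part the dyes had in the averaged ratios was not tested. Some libraries went against their labels. At 6 h the mean log2 ratio of 4 Y-linked genes was −0.14 in pair 1, −1.27 in pair 2, −0.68 in pair 3 and −0.74 in pair 4, so the vehicle pools of pairs 2 to 4, labelled female, carried Y-linked RNA. Their summed signal for the 4 genes reached 792, 468 and 510, against 244 to 298 in the 12 h vehicle and 17.5 dpc female pools and 867 to 1143 in the male pools. Markers of the labelled tissue were present: all 14 epithelial and all 8 fibroblast and mesenchyme markers were among the genes tested. So were all 20 markers of skeletal muscle, with a summed signal of 9616 to 77962 over all pools. Whether this RNA came from the UGS itself or from tissue beside it was not tested.

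Promoters are shown because Myocd, the regulator that changed in 2 comparisons below, acts through CArG boxes. RefSeq promoters (GRCm38.p6) were at hand for 6 of the 10 genes, Acta2, Cnn1, Des, Smtn, Synpo2 and Pgm5, and the 250 bases before the start were searched. A CArG box is CC, then 6 letters that are each A or T, then GG, and reads as a box on both strands. No exact box was found in the 6 promoters, and 1.47% of all 32851 promoters in the table had one. Allowing 1 mismatch, Acta2 had 2 boxes, CCCTATATGG from 84 bases and CCTTGTTTGG from 34 bases before the start, and the other 5 had none. Of all promoters, 18.6% had at least 1 such box and 2.96% at least 2. The Acta2 promoter (chr19:34255374-34255623, minus strand), with both boxes in capitals, reads 5′ to 3′:
Acta2: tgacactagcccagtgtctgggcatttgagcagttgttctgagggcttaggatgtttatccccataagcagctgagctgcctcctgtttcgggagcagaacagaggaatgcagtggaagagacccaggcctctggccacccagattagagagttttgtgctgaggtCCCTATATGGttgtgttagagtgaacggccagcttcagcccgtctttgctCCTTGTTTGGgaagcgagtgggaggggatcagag
The same stretch was searched for AGAACA, the half-site bound by the androgen receptor, on both strands. Acta2 held it at 154 bases before the start and, on the other strand, at 216 bases, where the printed strand reads TGTTCT. Neither overlapped a box. The other 5 promoters did not hold it, and 16.1% of all promoters did.

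Signal levels are given as log2 of the background-corrected and normalised signal, on which the offset of 50 added to every spot puts a floor near 5.64. Levels are compared within a gene only. The 3 comparisons were hybridised on a day each, so a difference in level between comparisons cannot be told apart from the day. Myocd was lowest in the 6 h DHT pools (7.12 ± 0.15, SD, n = 4), then in the 6 h vehicle pools (7.57 ± 0.08, n = 4), males (8.29 ± 0.34, n = 5), 12 h DHT pools (8.50 ± 0.10, n = 3), 12 h vehicle pools (8.52 ± 0.33, n = 3) and females (8.67 ± 0.15, n = 5). From the male pools upward, neighbours in this order lay within their spread of each other. Myh11 followed the same order, from 8.07 ± 0.07 in the 6 h DHT pools to 9.61 ± 0.42 in females, and neighbours lay within their spread of each other apart from the step between the 6 h vehicle pools (8.20 ± 0.22) and the male pools (9.14 ± 0.58). Des, the intermediate filament protein that links dense bodies, stood close to the floor at 6 h (6.32 ± 0.05 with DHT and 6.40 ± 0.05 with vehicle), so its ratios there are compressed, and reached 8.25 ± 0.19 in males. Pgm5 moved little between comparisons, from 10.95 ± 0.17 in the 12 h DHT pools to 11.34 ± 0.21 in females. No spot of the 18 probes was saturated on any array.

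The 6 h comparison asks what DHT changes early in the female UGS. Among the 10 genes Myocd was lower with DHT, by 1.37-fold, and it was the only member to pass the threshold (adjusted p under 0.05 in limma, over all genes). Myocd read 6.98, 7.30, 7.19 and 7.01 in the DHT pools of pairs 1 to 4 and 7.63, 7.65, 7.56 and 7.46 in the vehicle pools. Every DHT pool lay below every vehicle pool. The log2 ratios were −0.65, −0.35, −0.37 and −0.45, and both dye orientations gave a negative ratio in all 4 pairs. The mean log2 ratio was −0.45 (SD 0.14, SE 0.09, n = 4, adjusted p = 0.0257). Members past the threshold were 1 of 10, against 1.67% of all genes, or 1.17% counted among the lower genes alone.

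The Myocd call at 6 h did not hold under every setting: the adjusted p was 0.0501 when the 6 h pairs were fitted alone, 0.06 with the scanner's own ratios, 0.0642 with median centring and 0.0751 with the mean of both Myocd probes. In the 6 h pair whose vehicle pool was without raised Y-linked RNA the log2 ratio of Myocd was −0.65, the most negative of the 4. With that pair as the only 6 h replicate the adjusted p was 0.29. The adjusted p was 0.207, 0.103, 0.0611 and 0.0741 without pair 1, 2, 3 or 4 in turn, with log2 ratios of −0.39 to −0.49. The other Myocd probe (NM_145136) gave a log2 ratio of −0.02 (SD 0.06) at 6 h, on a dim spot whose level was about 6.10 with DHT. Myocd was also lower in males than in females, and the part of Y-linked RNA in the 6 h ratio was not tested.

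The structural genes did not pass the threshold at 6 h. Of the 10 members 9 had a log2 ratio below 0, Synpo2 among them at 0.00, against 45.5% of all genes. The median of the members was −0.07 against 0.01 over all genes. The sign depended on the probe for some: with the mean of all probes of a gene Acta2 was at 0.083 and Tagln at 0.035. Smtn, an actin-associated protein of contractile smooth muscle cells, read 6.98, 7.0, 6.996 and 6.93 with DHT and 7.03, 7.12, 7.02 and 7.04 with vehicle. Its pools did not overlap either, so 2 of 10 members had groups apart in level, against 7.84% of all genes. The Smtn log2 ratio was small, −0.08 (SD 0.05, adjusted p = 0.513). Myh11, the smooth muscle myosin heavy chain, was at −0.14 (SD 0.21, adjusted p = 0.75), and Cnn1, the calponin that restrains the actin-activated motor, at −0.13 (SD 0.29, adjusted p = 0.844). Both means came mostly from pair 1, at −0.41 for Myh11 and −0.55 for Cnn1, while the other pairs lay between −0.14 and 0.08. In pair 1 all 10 members were below 0, and in pairs 2, 3 and 4 there were 6, 7 and 5. The mean of the epithelial markers was also most negative in pair 1 (−0.58) and then in pair 2 (−0.48), at −0.10 and −0.01 in pairs 3 and 4, and its part in the members' ratios was not tested.

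The other members at 6 h lay closer to 0. The contractile actins Acta2 and Actg2 had mean log2 ratios of −0.04 (95% interval −0.18 to 0.10) and −0.07 (−0.21 to 0.07). Tagln, the actin-binding transgelin, was at −0.03 (−0.26 to 0.21), Des at −0.08 and Synpo2, the actin-bundling myopodin, at 0.00 (−0.28 to 0.28). Pgm5, the phosphoglucomutase-related protein of adherens-type junctions also called aciculin, was the only member above 0, at 0.04 (−0.13 to 0.21). Of these 9 members only Cnn1 had an interval (−0.47 to 0.21) that included the mean log2 ratio of Myocd.

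**Figure D1:**
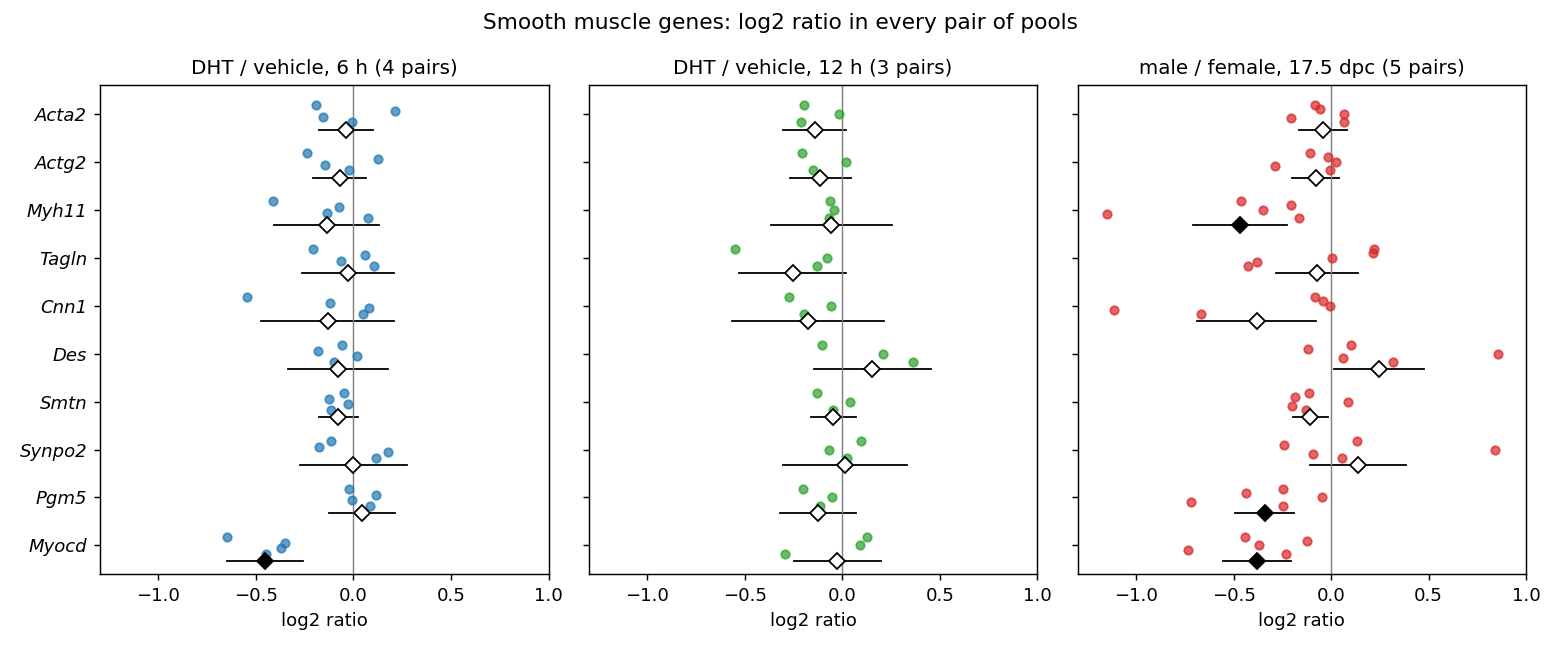
Log2 ratio (x axis) of the 10 genes (rows) in every pair of pools, with 1 panel per comparison. Coloured points are pairs, diamonds are the means from limma with 95% intervals, and filled diamonds passed the threshold: Myocd at 6 h (−0.45), none at 12 h, and Myh11 (−0.47), Pgm5 (−0.34) and Myocd (−0.38) between the sexes.

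The 12 h comparison asks the same of a longer exposure. In limma 0 of the 10 members passed the threshold, 0 had an unadjusted p under 0.05, and 0 passed under any of the other settings run, while 0.117% of all genes passed. The median log2 ratio of the members was −0.08 and 8 of 10 were below 0, against 48.8% of all genes. Myocd read 8.45, 8.43 and 8.61 with DHT and 8.32, 8.34 and 8.90 with vehicle in pairs 1 to 3. It was thus higher with DHT in 2 pairs and lower in the third, and its mean log2 ratio was −0.03 (SD 0.23, n = 3, 95% interval −0.25 to 0.20). The difference between the 12 h and the 6 h ratio of Myocd was 0.43 (SE 0.14, unadjusted p = 0.00821, adjusted p = 0.18), which did not pass. None of the 10 members passed in that contrast, in which 0.113% of all genes did and 1 member had an unadjusted p under 0.05. With the arrays kept apart and the pair as a random block the adjusted p of that difference was 0.0384.

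Acta2, the alpha actin of vascular and visceral smooth muscle, read 12.10, 12.21 and 12.15 in the DHT pools and 12.29, 12.23 and 12.36 in the vehicle pools. Each DHT pool lay below each vehicle pool, as for 1 of 10 members and 8.38% of all genes, and the log2 ratio was −0.14 (SD 0.11, adjusted p = 0.425). Tagln read 11.22, 11.69 and 11.50 with DHT and 11.77, 11.77 and 11.63 with vehicle. It had the most negative mean log2 ratio of the members, −0.25 (SD 0.26, adjusted p = 0.402), most of it from pair 1 at −0.55. The second Tagln probe gave −0.24 (SD 0.20) at 12 h. Cnn1 and Pgm5 were below 0 in all 3 pairs, at −0.18 (SD 0.11) and −0.12 (SD 0.07), the value of Pgm5 in pair 2 resting on 1 array. Des and Synpo2 were the members above 0, Synpo2 at 0.02 and Des at 0.16 (SD 0.24), the latter from −0.11 in pair 1 to 0.21 and 0.36 in pairs 2 and 3. The mean of the 20 skeletal muscle markers ran in the same order, 0.04, 0.35 and 0.69, as did that of the 14 epithelial markers, 0.00, 0.34 and 0.58. The part of either in the Des ratio was not tested.

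The dim second probes did not all follow the brightest at 12 h. A Synpo2 probe (AK035258) with mean levels of 6.24 with DHT and 6.12 with vehicle was above 0 in all 3 pairs, at 0.12 (SD 0.04, unadjusted p = 0.00461, adjusted p over all probes = 0.13 in limma). It gave 0.01 at 6 h and −0.02 between the sexes. The other dim Synpo2 probe (AJ306625) gave −0.04 at 6 h, 0.04 at 12 h and 0.05 between the sexes. The second Pgm5 probe (NM_175013) was also above 0 in all 3 pairs at 12 h, at 0.15 (SD 0.14, adjusted p over all probes = 0.214 in limma), opposite in sign to the brightest Pgm5 probe. The dim Acta2 probe (AK077294) gave 0.07 at 6 h, 0.01 at 12 h and −0.02 between the sexes.

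The comparison of males with females at 17.5 dpc sets embryos with a fetal testis, the source of their androgen, against embryos without one. Here 3 of the 10 members passed the threshold, all lower in males: Myh11 by 1.38-fold, Myocd by 1.30-fold and Pgm5 by 1.27-fold. The background was high, since 7.56% of all genes passed and 3.85% of all genes were lower. All 3 calls were lost when the comparison was fitted without the spread of the other comparisons (adjusted p of 0.17 for Myh11, 0.0726 for Myocd and 0.124 for Pgm5) and with the day of feature extraction as a term (0.223, 0.0931 and 0.208). These are bulk pools, in which fewer smooth muscle cells in males and less RNA per cell cannot be told apart.

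Myh11 read 9.01, 10.10, 9.06, 8.51 and 9.04 in the male pools of pairs 1 to 5 and 9.47, 10.30, 9.41, 9.66 and 9.21 in their female partners. The groups overlapped because pair 2 was high in both sexes, but the male was lower in each pair. No member had male and female pools fully apart in level, and 3.29% of all genes did. The log2 ratios were −0.46, −0.20, −0.35, −1.15 and −0.17, with a mean of −0.47 (SD 0.40, SE 0.11, n = 5, adjusted p = 0.0198). Pair 4 carried much of this mean. Without it the log2 ratio was −0.30 (adjusted p = 0.0261), and without pair 1 the adjusted p was 0.0512.

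Myocd, the coactivator, read 8.21, 8.80, 8.29, 7.85 and 8.30 in males and 8.65, 8.93, 8.66, 8.58 and 8.53 in females. The male pool was lower in all 5 pairs, and the male pool of pair 2 was the only one above any female pool. The log2 ratios were −0.44, −0.12, −0.37, −0.74 and −0.23, and the mean was −0.38 (SD 0.23, SE 0.08, n = 5, adjusted p = 0.00973). Leaving out any 1 pair kept it past the threshold, at −0.29 to −0.44. The dim second probe (NM_145136) was also negative in 5 of 5 pairs, at a mean of −0.06 (SD 0.05).

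Pgm5 read 10.74, 10.90, 11.40, 10.79 and 11.18 in males and 10.99, 11.34, 11.45, 11.51 and 11.43 in females. The log2 ratios were −0.25, −0.44, −0.05, −0.72 and −0.25, that of pair 1 from 1 array, and the mean was −0.34 (SD 0.25, SE 0.07, n = 5, adjusted p = 0.00807). Males were lower in every pair, by little in pair 3 and by most in pair 4. Leaving out any 1 pair kept it past the threshold, at −0.25 to −0.41, but median centring in place of loess ended the call (−0.27, adjusted p = 0.257). With the mean of both Pgm5 probes the log2 ratio was −0.18 and passed. The dim second probe (NM_175013) gave −0.03 (SD 0.10). Pgm5 was the only member whose male-female ratio differed from its 6 h ratio, by −0.39 (SE 0.11, adjusted p = 0.0442), in a contrast that 6.89% of all genes passed. That call was lost without any 1 of the 6 h pairs (adjusted p 0.0798 to 0.134), without male-female pair 2 (0.0886) and without pair 5 (0.0572). No member passed for the male-female against the 12 h ratio, which 1.65% of all genes did, although Myh11 and Myocd had unadjusted p of 0.0418 and 0.0182, the 2 members under 0.05.

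**Figure D2:**
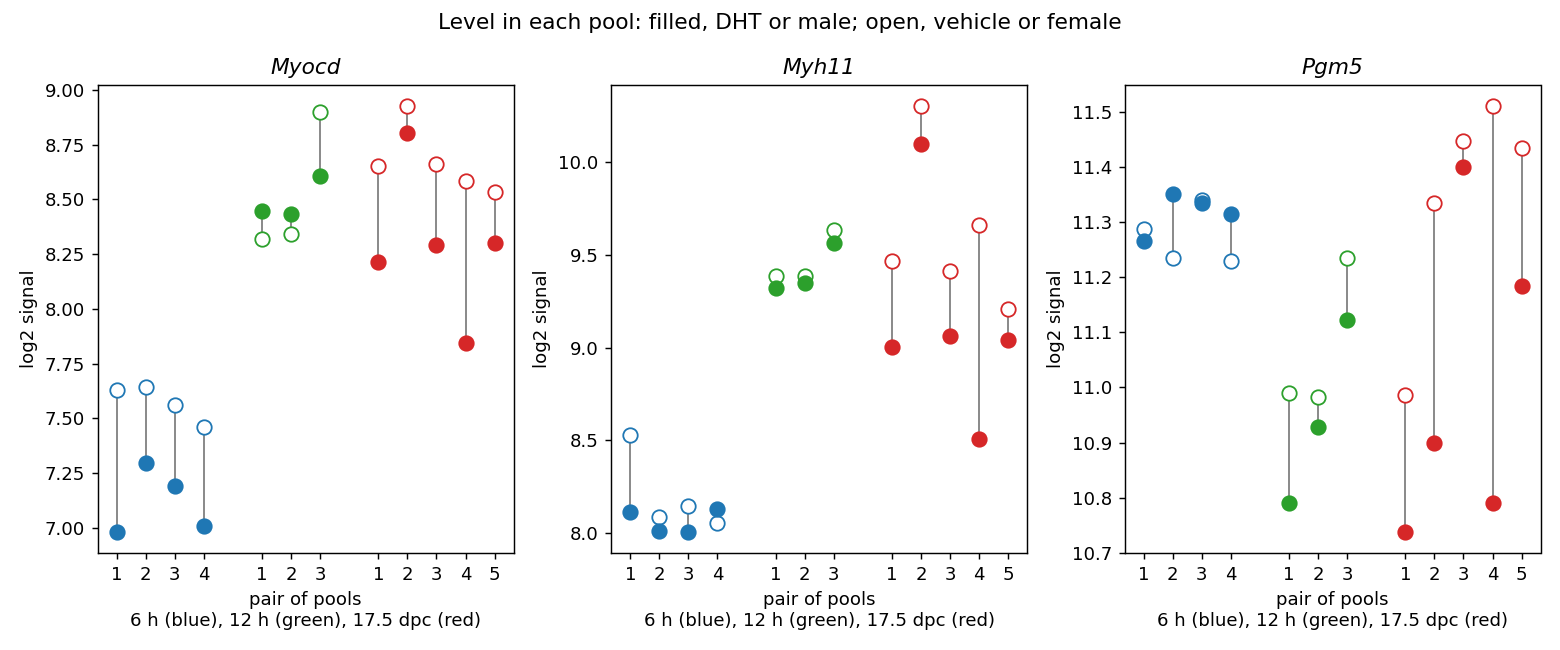
Log2 signal (y axis) of Myocd, Myh11 and Pgm5 in both pools of each pair (x axis: pairs 1 to 4 at 6 h in blue, 1 to 3 at 12 h in green, 1 to 5 at 17.5 dpc in red), filled for DHT or male and open for vehicle or female. The 4 filled Myocd points at 6 h lie below the 4 open ones, and the filled point is the lower of each of the 5 male-female pairs for all 3 genes, with the widest gap in pair 4.

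The remaining 7 members did not pass between the sexes. Cnn1 had a mean as low as that of Myocd, −0.38 (SD 0.49, adjusted p = 0.142), but an uneven one: it read 11.31, 11.75, 11.08, 10.37 and 10.67 in males and 11.39, 11.79, 11.08, 11.49 and 11.34 in females. Pairs 4 and 5 gave log2 ratios of −1.11 and −0.67 and the other pairs −0.08 to −0.01, and without pair 4 the mean was −0.20. Cnn1 passed (adjusted p = 0.0135) with the arrays kept apart and the pair as a random block. Smtn was at −0.11 (SD 0.12, adjusted p = 0.166), negative in 4 of 5 pairs, and passed without pair 3 at −0.16 (adjusted p = 0.0206). Tagln split by pair: its male pools were above or level with the female pools in pairs 1 to 3 (log2 ratios 0.22, from 1 array, 0.22 and 0.00) and below them in pairs 4 and 5 (−0.38 and −0.42). Its mean was −0.07 (95% interval −0.28 to 0.14), and the second Tagln probe gave −0.04.

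The contractile actins, which rank among the most abundant messages of mature smooth muscle, did not pass between the sexes. Acta2 read 11.55, 12.08, 11.82, 11.68 and 11.69 in males and 11.64, 12.14, 11.75, 11.89 and 11.62 in females. Its mean log2 ratio was −0.04 (95% interval −0.17 to 0.08). This interval holds for 1 probe: a probe that traces to Acta2 under another name in the files (0610041G09Rik) was at −0.30, lower in 5 of 5 pairs and down to −0.84, with an adjusted p over all probes of 0.0784 in limma. Actg2, the gamma actin of visceral smooth muscle, was at −0.08 (−0.20 to 0.04). Their ratios moved together over the 12 pairs at r = 0.935, the highest of any 2 members, but their messages are alike in sequence and cross-hybridisation of the probes was not tested. The second Acta2 probe (A_52_P210078) read 0.21 at 6 h, −0.17 at 12 h and −0.20 (SD 0.45) between the sexes, with −0.74 as its lowest pair, so the 2 probes of the same accession did not track each other closely.

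Des and Synpo2 had positive means between the sexes. Des read 8.14, 8.17, 8.59, 8.17 and 8.20 in males and 8.04, 8.29, 7.73, 8.11 and 7.88 in females, and its mean log2 ratio was 0.24 (SD 0.38, adjusted p = 0.237). Synpo2 read 8.12, 7.90, 8.66, 8.06 and 8.31 in males and 7.99, 8.15, 7.82, 8.15 and 8.26 in females, with a mean of 0.14 (SD 0.42, adjusted p = 0.63). Pair 3 stood out for both, at log2 ratios of 0.86 and 0.84, and without it the means were 0.09 and −0.04. The sign and size of the Synpo2 mean depended on the probe. The dim probe AJ306625 was above 0 in 5 of 5 pairs, at 0.05 (SD 0.03), and the dim probe AK035258 was at −0.02. A brighter probe that traces to Synpo2 under another name (2310068J10Rik) was at −0.23, lower in 5 of 5 pairs (adjusted p over all probes = 0.0301 in limma). Both genes are also expressed in skeletal and heart muscle. In pair 3 the mean log2 ratio of the 20 skeletal muscle markers was 1.37, with 19 of 20 above 0, and their summed signal was 77962 in the male pool against 27072 in the female pool. In pairs 1, 2, 4 and 5 that mean was 0.25, −0.44, −0.05 and 0.21, lowest in pair 2, where Des and Synpo2 were lowest as well (−0.12 and −0.24). The part of skeletal muscle RNA in these 2 ratios was not tested. The 5 heart muscle markers had means of 0.00 to 0.20 over the 5 pairs. Of these markers 1 passed, Myl7, higher in males at 0.23 (adjusted p = 0.00958 in limma).

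Markers of some other cell types also differed between the sexes, though not always in step with the members. All 14 epithelial markers had a mean log2 ratio above 0 and 8 passed as higher in males, with pair means of 0.13 to 0.55 and summed signals of 31938 to 45639 in males against 28028 to 31772 in females. Of 8 fibroblast and mesenchyme markers 2 passed as lower in males, Col1a1 (−0.67) and Col3a1 (−0.43). The mean log2 ratio was below 0 for 6 of the 8 and above 0 for Thy1 (0.22) and Twist1 (0.08). Pair means of this list were −0.63 in pair 4, −0.46 in pair 3 and −0.14 to 0.10 in the other pairs. Its summed signals were 62187 to 145905 in males against 124556 to 143441 in females. Of 6 pericyte markers 3 passed as lower, Pdgfrb (−0.33), Rgs5 (−0.34) and Abcc9 (−0.30), most in pair 4 (mean −0.39), while 0 of 6 endothelial markers passed. The mean of the 10 members was −0.48 in pair 4, the lowest of all 12 pairs, against −0.14 to 0.11 in the other male-female pairs. There the log2 ratios were 0.06 for Des, −0.09 for Synpo2, −0.20 for Smtn, −0.21 for Acta2, −0.29 for Actg2 and −0.38 for Tagln, against −0.72 to −1.15 for Pgm5, Myocd, Cnn1 and Myh11. What part these other cell types have in the members' ratios was not tested.

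**Figure D3:**
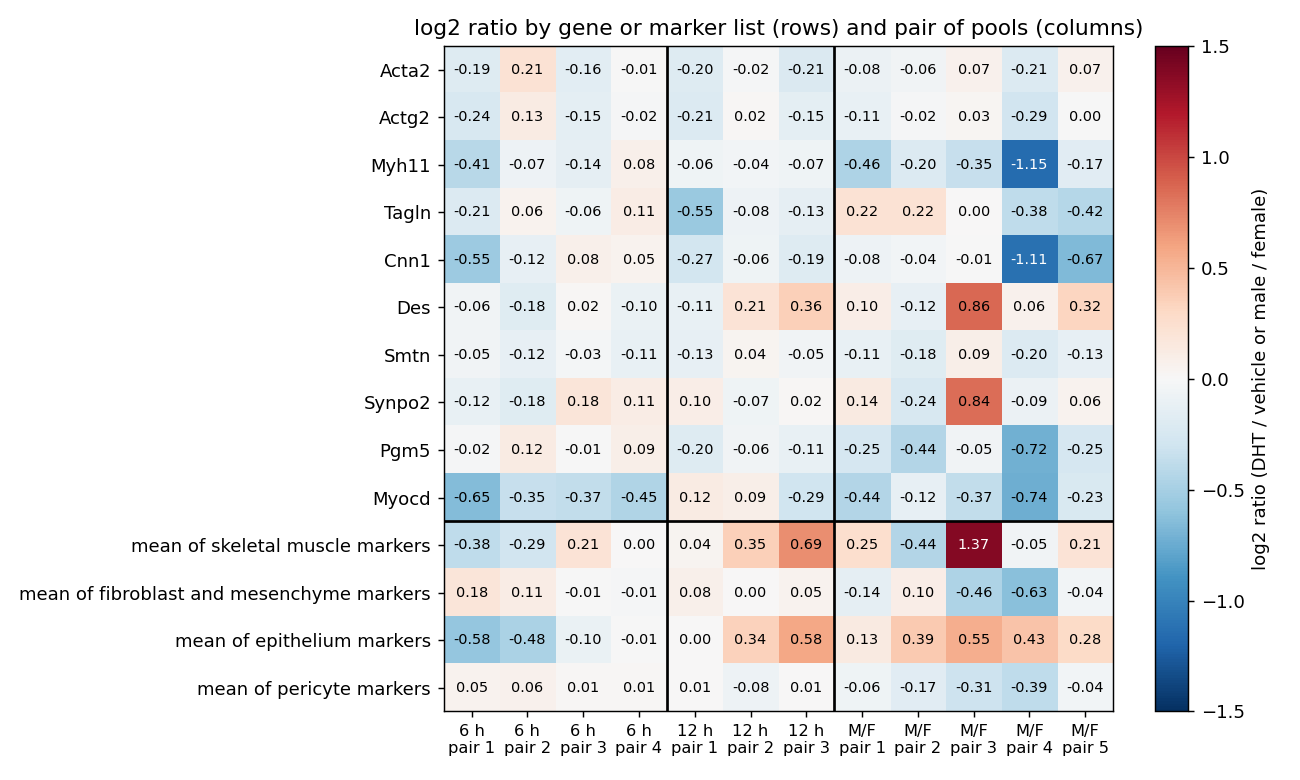
Log2 ratio (colour and printed value, blue lower and red higher in DHT or male) of the 10 genes and the mean of 4 marker lists (rows) in the 12 pairs of pools (columns; M/F, male over female). Myocd is blue in all 4 pairs at 6 h and all 5 between the sexes, Des and Synpo2 are reddest in male-female pair 3 together with the skeletal muscle markers (1.37), and most members are bluest in male-female pair 4 together with the fibroblast and mesenchyme markers (−0.63).

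The members were next set beside 72 other genes, 28 contractile and cytoskeletal, 21 signalling and channel and 23 regulatory, of which 69 were tested (Barx1, Elk1 and Pln were not). These genes have parts in smooth muscle, but many, such as Vim, Rhoa and Prrx1, are not particular to it. At 6 h 1 of the 69 passed in limma, or 1.45%, a share near the 1.67% of all genes, and at 12 h 0 passed. At an unadjusted p under 0.05 there were 17 and 10 of the 69, against 14.3% and 14.1% of all genes. Cnn2, the calponin of non-muscle and smooth muscle cells, was the one at 6 h, at −0.33 (SD 0.12, n = 4, adjusted p = 0.0304), and was lower in all 4 pairs; the call was lost without any 1 of the pairs. Between the sexes 21 passed, 16 lower and 5 higher in males, or 30.4% of the 69 against 7.56% of all genes. The median log2 ratios of the 3 lists were −0.08, −0.08 and −0.03, against 0.00 over all genes.

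Among contractile and cytoskeletal genes 6 of 28 were lower in males and 1 was higher. Pdlim7, an actin-anchored scaffold, was at −0.35 (adjusted p = 0.00174), Lmod1, the leiomodin that seeds actin filaments in smooth muscle, at −0.26, Tpm1, a tropomyosin, at −0.25, and the actin cross-linker Flna at −0.24. Cnn2 was at −0.22 and Itga8, an integrin of mesenchyme and smooth muscle, at −0.17. The exception was Csrp1, a LIM protein of smooth muscle that binds alpha-actinin, which was higher in males at 0.44 (SD 0.45, adjusted p = 0.047), with 1.20 in 1 of its 5 pairs, and lost the call without pair 1, 3 or 4. Cald1, the caldesmon that blocks myosin's access to actin, was at −0.36 at 6 h (adjusted p = 0.081) and −0.14 between the sexes, and Mylk, the kinase that starts contraction, at −0.31 between the sexes (adjusted p = 0.0576). Pdlim3 was at 0.62 at 12 h (SD 0.28, adjusted p = 0.0579 in limma), higher with DHT in all 3 pairs, and at 0.28 between the sexes (adjusted p = 0.1).

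Of genes that set smooth muscle tone, 5 of 20 were lower and 1 was higher in males. Ednra, the endothelin receptor of smooth muscle and mesenchyme, was at −0.54 (SD 0.09, adjusted p = 7.27e-06), lower in 5 of 5 pairs within a narrow range of −0.69 to −0.45. Both subunits of soluble guanylate cyclase, the receptor for nitric oxide, were lower together, Gucy1a1 at −0.44 and Gucy1b1 at −0.35. Ppp1r14a, the inhibitor of myosin phosphatase also called CPI-17, was at −0.31, and Rgs5, a brake on G-protein signals that also stands in the pericyte list, at −0.34. Agtr1a, the angiotensin receptor, was higher in males at 0.46 (SD 0.15, adjusted p = 0.00151).

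Of the regulators 5 of 21 were lower and 3 higher in males. Prrx1, a homeobox factor of mesenchyme, was lowest at −0.62 (SD 0.25, adjusted p = 8.48e-05). Csrp2, a LIM-domain cofactor of serum response factor, was at −0.49, Tead1, which binds MCAT elements in smooth muscle promoters, at −0.31, Tgfb1i1, the focal adhesion coactivator Hic-5, at −0.26 and Crip2 at −0.25. Klf15, a Kruppel-like factor induced by glucocorticoids in several tissues, was at 0.91 (SD 0.10, adjusted p = 9.2e-06). With DHT Klf15 fell just short of the threshold in limma, at 0.37 at 6 h (SD 0.33, adjusted p = 0.0551) and 0.57 at 12 h (SD 0.05, adjusted p = 0.0505). Tcf21, a bHLH factor of mesenchyme, was at 0.31 and Pias1, a SUMO ligase, at 0.18. Srf itself was at −0.10 (adjusted p = 0.128), negative in 5 of 5 pairs, and Mrtfa, a relative of Myocd with the same partner, at −0.03. Cald1, Mylk, Pdlim3, Srf and Mrtfa were named, and the DHT ratios of Klf15 given, after the values were seen. Of the 21 companion genes Ednra, Gucy1a1, Gucy1b1, Agtr1a, Klf15 and Prrx1 passed under all 17 alternatives, with sizes that varied among them, from −0.62 to −0.18 for Ednra and from 0.486 to 1.496 for Klf15. Each of the others fell short under 1 or more, most often Csrp1 (11 of the 17), Pias1 (9), Flna (8) and Tcf21 (7).

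**Figure D4:**
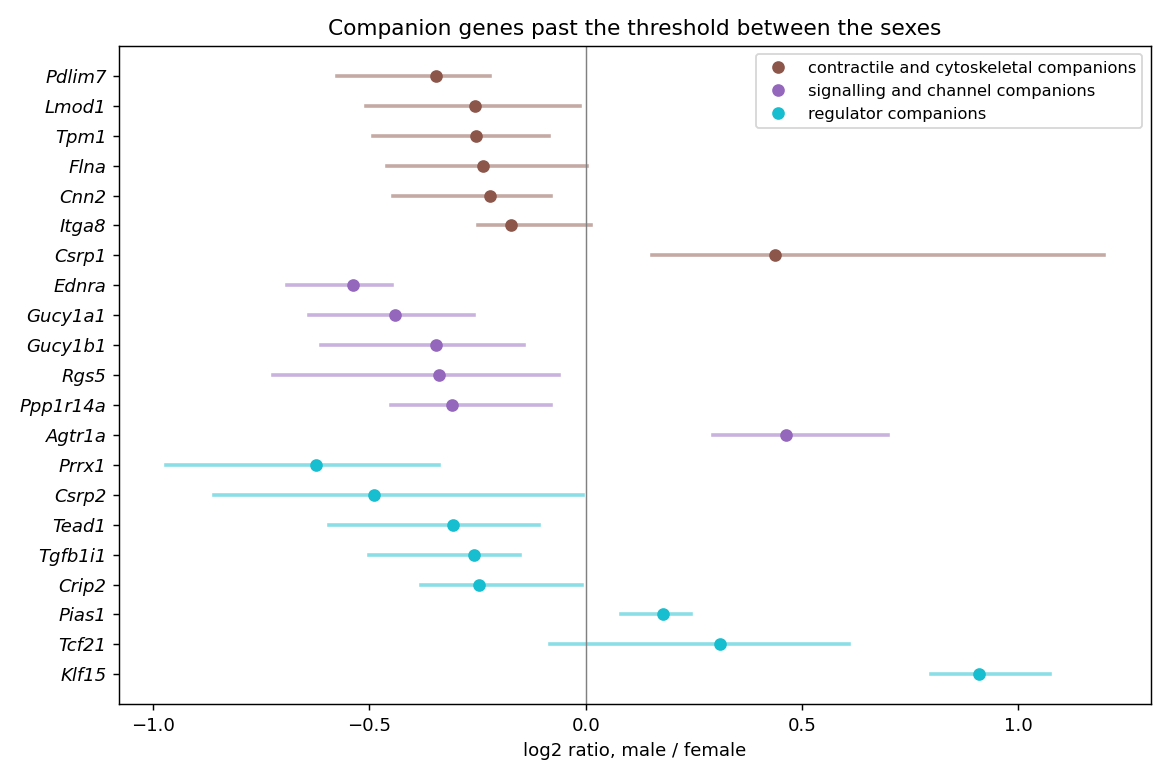
Male over female log2 ratio (x axis) of the 21 companion genes that passed the threshold (rows, coloured by list); points are means and bars span the lowest to the highest of the 5 pairs. Prrx1 (−0.62) and Ednra (−0.54) lie farthest to the left and Klf15 (0.91) farthest to the right.

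Outside the 10 members, the genes whose ratios were most like the mean of the 10 members over the 12 pairs were Tpm2 (Pearson r = 0.927), Pitx1 (0.887), Fhl1 (0.882), Rap2c (0.878) and Asph (0.876), followed by Prune1, Actc1, Chrdl1, Mknk2 and Stag2 at 0.847 to 0.874. The points are pairs that share arrays and hybridisation days between genes, and the r within comparisons was 0.844 to 0.958, so the likeness came from differences among pairs of a comparison. Tpm2 encodes the beta tropomyosin of muscle, which is also a companion gene, and Actc1, a skeletal list member here, the cardiac actin whose sequence is close to those of Acta2 and Actg2. None of the 10 passed between the sexes, with adjusted p from 0.117 up. Among the members, after Acta2 and Actg2, the pairs most alike were Des with Synpo2 (r = 0.788), Myh11 with Pgm5 (0.755) and Myh11 with Cnn1 (0.74), and Myocd was most like Myh11 (0.647).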

How the data were processed

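Per the labels, UGS RNA pools were linearly amplified, dyed with Cy3 or Cy5 and hybridised as pairs to 24 Agilent whole mouse genome arrays. Agilent Feature Extraction 7.5.1 wrote the deposited scanner files, per the file headers. Per the file headers they give each spot's intensity in 2 channels, with the background around it, and a log10 ratio (Cy5 over Cy3) after the software's own correction. The authors' series matrix gives log2 ratios whose sign already follows the comparison (a positive value is more in DHT or male pools), with their centring not given in the sources used here.

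Mean intensities were corrected in limma 3.58.1 under R 4.3.3 (normexp, offset 50; the R package data.table, version 1.17.8, read the files) and normalised by loess within arrays, control spots at weight 0. Ratios were turned to 1 sign and outlier spots set to missing. Spots of a probe and then the 2 dye-swapped arrays of a pair were averaged. Probes entered the tests if 6 or more of the 24 arrays had either channel well above background, and the brightest kept probe stood for its gene. For the members only probes carrying the member's name counted. Levels also had quantile normalisation of the average signals. All 12 pairs entered 1 fit with a mean for each comparison and a spread shared by the comparisons, tested two-sided and adjusted by Benjamini-Hochberg over 24717 genes with 0.05 as the threshold. SD is over pairs and SE from the fit, which was tested on simulated data. The number of arrays limits the precision, and no 2 arrays were identical. Same-numbered pairs of different comparisons deviated together at r = −0.0691 to 0.287. Differently numbered pairs were not compared, so this cannot settle whether the numbers pair the pools, and the main fit did not pair them.

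The members, lists and tests were chosen with earlier results of these data known. Named were all members, companion genes past the threshold (the 8 largest of a list where more passed) and the 10 genes most like the members' mean. Alternatives changed the correction, normalisation, source of ratios, filter, probe rule, samples in the fit, dye-swap handling and replicates. Probes were named by accession (21445), symbol (5431) or synonym (4633), and 9662 kept the file's name. The results of 1 gene of the companion lists are not reported here, and the counts leave it out.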

Additional observations from a re-analysis of the deposited data

Results flagged for a closer look

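The male-female log2 ratio of Pgm5 differed from its 6 h DHT log2 ratio by −0.39 in the same fit (adjusted p = 0.0442), with −0.34 in 5 of 5 pairs below 0 between the sexes and 0.04 at 6 h, where 2 of 4 pairs were below 0. The 2 comparisons were hybridised on different days, and the 6 h vehicle pools of pairs 2 to 4 carried Y-linked RNA, whose part in this difference was not tested.

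The mean log2 ratio of the 4 Y-linked genes was 1.25 in male-female pair 1, apart from the 1.61 to 1.69 of the other 4 pairs, and its gap to the nearest was 0.814 of the range of the group. Of 34 groups of 4 or 5 pairs examined for such a value, 1 had one, and chance alone gives about 1 in 20. The dye-swapped array of this pair had 1646 outlier spots, against 1 to 219 on each other array, and its part in this value was not tested. The members' log2 ratios in pair 1 lay within the range of the other pairs, except that Tagln was highest there at 0.22.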

How the results depend on the processing

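No member's called direction reversed under any alternative, and counts of members past the threshold at 12 h, and for the sexes against 12 h, stayed at 0. At 6 h the count of 1 (Myocd) fell to 0 with the scanner's own ratios, median centring, the comparison fitted alone, the mean of all probes, the replicate block, pair 1 as the only 6 h pair, and without each replicate in turn (0 to 0). Between the sexes the count of 3 fell to 0 when fitted alone and with extraction day as a term, an alternative chosen after seeing the data, was 2 with median centring (without Pgm5) and 4 with pair as a random block (with Cnn1), and was 2 to 4 without each replicate in turn. The count of 0 for 12 h against 6 h rose to 1 (Myocd) with arrays kept apart and pair as a random block or extraction day as a term. The count of 1 for the sexes against 6 h (Pgm5) fell to 0 with the scanner's own ratios, median centring, fitted without the third comparison, the mean of all probes, extraction day, the replicate block and 6 h pair 1 only, and was 0 to 1 without each replicate in turn. The cause of these changes was not tested. The replicate block moved the count for all genes from 412 to 81 at 6 h, from 29 to 6 at 12 h and from 1869 to 1979 between the sexes. Over all alternatives the counts for all genes ranged from 1 to 1466 at 6 h, 0 to 293 at 12 h and 866 to 2819 between the sexes. Among members, Myocd passed at 6 h in 7 of 17 alternatives (−0.73 to −0.24). Between the sexes Myocd passed in 15 of 17, Myh11 in 14 and Pgm5 in 14. Scan date or slide as a block was not run: the files give no scan date and each slide held 1 array. Probes near the floor, such as Des at 6 h and the second probes of Myocd and Pgm5, have compressed ratios, and 3 to 5 pairs a comparison limit the rest. The brightest Myocd probe was also nearer the floor at 6 h (7.12 with DHT, 7.57 with vehicle) than in the other comparisons. The offset thus compresses its ratio more at 6 h, where it was −0.45 in the main fit and −0.73 with the scanner's own ratios.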

Other observations

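Another 3 probes trace to members by accession or synonym but carry other names in the scanner files, and so lie outside the rule that chose the members. D830025G17, which traces to Pgm5, was lower in males in 5 of 5 pairs at a log2 ratio of −0.11 (SD 0.05, adjusted p over all probes = 0.0456 in limma). The probe named 2310068J10Rik, which traces to Synpo2, was lower in males in 5 of 5 pairs at −0.23 (SD 0.10, adjusted p = 0.0301), while the Synpo2 probe of the results was at 0.14 (SD 0.42) and reached 0.84 in the pair with the highest skeletal muscle markers. The probe named 0610041G09Rik, which traces to Acta2, was lower in males in 5 of 5 pairs at −0.30 (SD 0.32, adjusted p = 0.0784), from −0.84 to −0.05. At 12 h it was at −0.21 (SD 0.13, adjusted p = 0.462), lower with DHT in 3 of 3 pairs, as was the Acta2 probe of the results at −0.14.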
